A study of Homo sapiens with 16 samples.

Results

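The HOXB cluster is a row of homeobox genes on chromosome 17, and its members HOXB2, HOXB3, HOXB4, HOXB5, HOXB6, HOXB7, HOXB8 and HOXB9 are described here in Molm14 cells. They were taken as the rows of the expression table whose Ensembl gene ID maps to these symbols, and all 8 members were found among the 22445 genes of the table. Molm14 is a human acute myeloid leukaemia line that carries a KMT2A rearrangement, which all groups share. Cells were treated with 0.16 uM EPZ5676 together with 0.3 uM GSK126 (Combo), with 0.16 uM EPZ5676 alone (iDOT1L), with 0.3 uM GSK126 alone (iEZH2) or with the vehicle (DMSO), for 7 days with a renewal on day 4. EPZ5676 inhibits DOT1L and GSK126 inhibits EZH2. Each group has 4 RNA-seq libraries of 1 line, so all values describe a single leukaemia.

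HOX genes encode transcription factors that give cells their place along the body axis, and the order of the genes along a cluster mirrors the order of their domains, from anterior (low numbers) to posterior (high numbers). In blood formation HOXA and HOXB genes are active in stem and progenitor cells and are shut off as cells mature. KMT2A fusion proteins recruit DOT1L, which methylates histone H3 at lysine 79 over transcribed HOXA genes, whereas EZH2, which carries the enzyme activity of Polycomb repressive complex 2 (PRC2), methylates lysine 27 over silent HOX genes.

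HOXB9 was the 1 member that passed the test in any comparison, and its paralogue HOXA9 was far more abundant in these cells (686.4 ± 79.5 normalised counts per kb of transcript in Combo, 627.7 ± 19.9 in iDOT1L, 816.0 ± 53.2 in iEZH2 and 776.5 ± 67.9 in DMSO cells, SD, n = 4 each). The homeobox of HOXB9 is shown as the stretch that makes it a DNA-binding protein. It is the 180 bases of exon 2 that encode the homeodomain, from the GENCODE v29 transcript HOXB9-201 (GRCh38, chr17:48622921-48623100, minus strand), 5′ to 3′ on the coding strand, and capitals mark codons 48 to 53 of the homeobox, which encode the conserved core of the recognition helix, the helix that contacts DNA bases.
HOXB9: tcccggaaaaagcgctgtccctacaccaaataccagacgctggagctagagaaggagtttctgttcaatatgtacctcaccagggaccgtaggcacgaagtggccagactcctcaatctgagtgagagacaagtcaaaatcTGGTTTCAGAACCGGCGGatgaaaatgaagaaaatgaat
Over whole transcripts, 0.392% of the 31-base words of HOXB9 occur in another annotated gene, all of them in HOXD9, which has no row in the table. None of the shared words of HOXB9 lies in HOXA9. Words shared with other genes made up 0.586% for HOXB8, 2.52% for HOXB2, 3.23% for HOXB5, 5.43% for HOXB7, 10.6% for HOXB3, 14.6% for HOXB4 and 28.9% for HOXB6. HOXB6 shared 15.4% of its words with HOXB3, whose annotated exons overlap its own on the same strand by 433 bases, and 12.9% with the antisense gene HOXB-AS3. The levels of HOXB6 and, to a lesser degree, of HOXB3, HOXB4 and HOXB7 are therefore uncertain. The shared words of HOXB7 are spread over 1341 other genes, and 5.37% of its words occur in genes that have a row. The 4 annotated HOXB antisense genes have no row, and the sources used here do not say whether counting used strand.

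An estimated 20.7 to 27.3 M reads were counted per library, and levels are given as normalised counts, of which 1 read is worth 0.850 to 1.13. Of 11 marker genes of the line all were detected in every library, and several moved with treatment. Against DMSO 2 rose and 4 fell in Combo, 2 rose and 3 fell in iDOT1L and 3 fell in iEZH2 cells. Over all genes tested, 16% were called in either direction in Combo, 6.25% in iDOT1L and 3.35% in iEZH2 cells. The granule gene MPO rose by 2.61 in Combo (log2, limma adjusted p = 1.34e-06) and by 2.55 in iDOT1L cells (adjusted p = 7.43e-06), the lysozyme gene LYZ rose by 2.65 in Combo (adjusted p = 7.9e-07) and by 1.85 in iDOT1L cells (adjusted p = 6.79e-05), and the receptor gene FLT3 and the integrin gene ITGAX fell in all 3 treatments. Of 15 markers of other cell types 12 have a row. The red cell genes GATA1 and KLF1 reached at most 2.49 and 3.12 normalised counts, while PAX5 (430.2 to 1343), PECAM1 (1302 to 3680), KRT18 (405.9 to 982.3), KRT8 (161 to 466.7) and COL1A1 (45.1 to 235.4) were expressed. Against DMSO, COL1A1 rose and PAX5 and PECAM1 fell in Combo, PAX5 and KRT18 fell in iDOT1L and PECAM1 fell in iEZH2 cells. KRT18, an epithelial keratin gene, averaged 653.3 in Combo, 486.1 in iDOT1L, 912.6 in iEZH2 and 808.9 in DMSO cells. It was lowest in iDOT1L and highest in iEZH2 cells as for HOXB9, and is named for this after its values were seen. Its differences from DMSO were -0.74 in iDOT1L (limma adjusted p = 0.000335) and 0.17 in iEZH2 cells (adjusted p = 0.507). The epithelial genes KRT8 and EPCAM were also lowest in iDOT1L but highest in DMSO cells (280.5 and 7.32, against 271.3 and 5.65 in iEZH2 cells). Both DMSO means are raised by DMSO library 1 (467 and 22.9), the highest of all 16 libraries for both genes. The place of DMSO cells in these 2 orders therefore rests on that library. The 12 genes summed to 3042 to 3737 in Combo, 3517 to 5554 in iDOT1L, 3705 to 4556 in iEZH2 and 4721 to 5905 in DMSO libraries. These sums are mostly PECAM1, PAX5 and KRT18, so they do not measure an amount of other cell types. The part of these markers in the results on HOXB genes was not tested. DMSO library 1 stood apart. Of 17 genes active in prostate epithelium, a list chosen after the values were seen, 11 were highest of all 16 libraries in DMSO library 1 and none was at 0 there. KLK3, which encodes prostate-specific antigen, had 42.7 normalised counts in DMSO library 1, against 0.886 to 9.85 in the other 15 libraries, and the epithelial cadherin gene CDH1 had 115, against 15.6 to 49.2. EPCAM and KRT8, epithelial genes, had 22.9 and 467 there, against at most 11.3 and 329 elsewhere. The summed level of the list was 1142 to 1482 in Combo libraries, 977 to 1273 in iDOT1L libraries, 1554 to 1736 in iEZH2 libraries and 1403 to 2099 in DMSO libraries, of which libraries 2 to 4 lay at 1403 to 1501. These sums are mostly KRT18, KRT8 and SLC45A3 (406 to 982, 161 to 329 and 228 to 327 outside DMSO library 1). Differences between groups in the sums therefore mainly follow these 3 genes. Because DMSO library 1 stood apart, results of HOXB9 against DMSO are also given without it, as are some results of other genes. The remaining results rest on all libraries. The part of this difference in the results against DMSO was not tested.

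The HOXB genes were weakly expressed throughout. Means over all 16 libraries were between 2.07 normalised counts for HOXB7 and 46.7 for HOXB9. The 8 members together summed to 48.6 ± 7.22 normalised counts per kb in Combo cells, 26.2 ± 3.51 in iDOT1L cells, 63.0 ± 12.7 in iEZH2 cells and 39.1 ± 2.57 in DMSO cells (SD, n = 4 each). The 11 HOXA genes summed to 2446 ± 245 per kb in Combo, 2328 ± 147 in iDOT1L, 3244 ± 441 in iEZH2 and 3318 ± 170.5 in DMSO cells, so the HOXB sum was a small fraction of the HOXA sum in every group.

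Per kilobase of the longest annotated transcript the order of levels was HOXB9 (18.1 ± 12.4 normalised counts per kb, SD over 16 libraries), HOXB8 (7.17 ± 3.79), HOXB3 (6.60 ± 1.46), HOXB5 (3.96 ± 1.91), HOXB6 (3.36 ± 2.06), HOXB4 (2.12 ± 0.669), HOXB7 (1.51 ± 1.27) and HOXB2 (1.41 ± 1.04). HOXB9 lay above HOXB8 in 13 of 16 libraries and HOXB3 above HOXB5 in 14 of 16. HOXB8 and HOXB3 could not be ordered, since HOXB8 was the higher in 6 of 16 libraries, and neither could HOXB5 and HOXB6 (9 of 16), HOXB6 and HOXB4 (11 of 16), HOXB4 and HOXB7 (11 of 16) or HOXB7 and HOXB2 (7 of 16). In iDOT1L cells HOXB9 fell to 4.56 ± 1.29 per kb, against 14.6 ± 1.14 per kb in DMSO cells. The pooled order does not hold in iDOT1L cells, where HOXB3 had the highest mean (5.85 ± 0.725 per kb) and HOXB9 and HOXB8 both had 4.56, with libraries that overlap. The level did not change step by step along the cluster: HOXB9 and HOXB8 at the posterior end and HOXB3 near the anterior end stood above the genes between them.

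**Figure D1:**
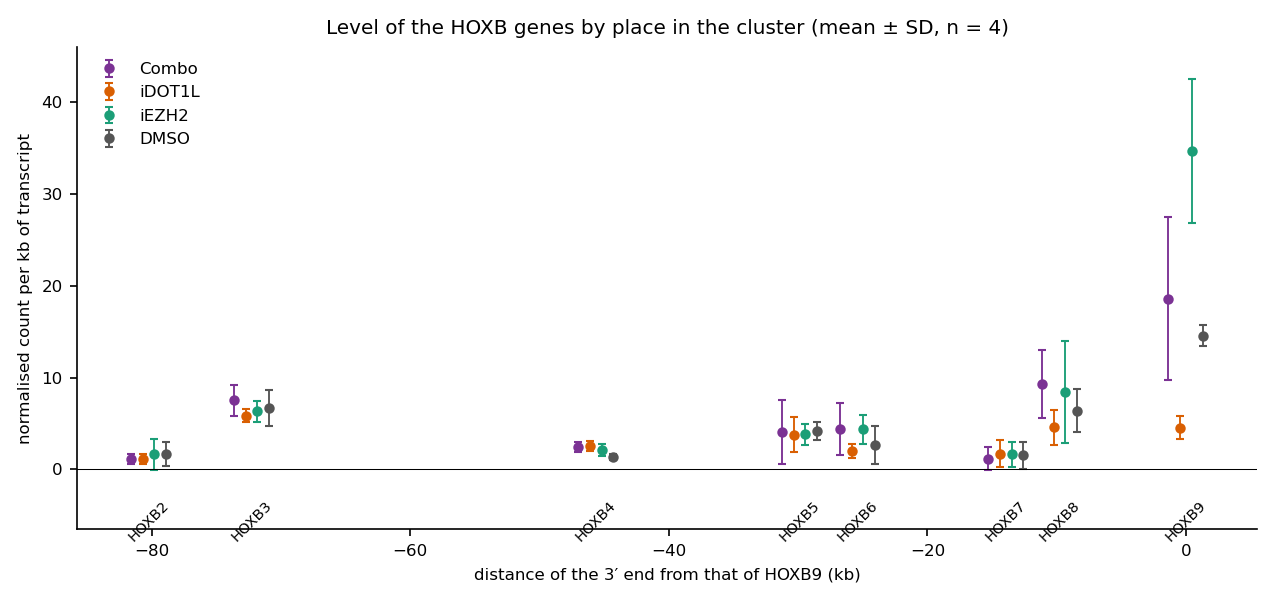
Mean level of each HOXB gene per kilobase of transcript (y axis, normalised counts per kb, whiskers SD, n = 4) against the distance of its 3′ end from that of HOXB9 (x axis, kb), with 1 point per group. HOXB9, at the right, has the widest range, with means of 18.6 per kb in Combo, 4.56 in iDOT1L, 34.7 in iEZH2 and 14.6 in DMSO cells.

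HOXB9, a posterior HOX gene that patterns the thoracic skeleton in mice, fell in iDOT1L cells and rose in iEZH2 cells. It had 16.3, 8.52, 11.8 and 10.4 normalised counts in iDOT1L libraries 1 to 4, against 34.7, 38.5, 41.3 and 36.0 in DMSO libraries 1 to 4. The iDOT1L and DMSO libraries did not overlap (12.5% of all genes), and the difference was 3.10-fold (log2 fold change -1.63 ± 0.28 SE, limma adjusted p = 0.000924). It was called in each of the 16 alternative fits (adjusted p 0.000126 to 0.0104) and was -1.67 without DMSO library 1 (limma adjusted p = 0.00277). Lower calls were made for 3.17% of all genes tested in iDOT1L against DMSO, and calls in either direction for 6.25% (12.2% with replicates of the same number paired). HOXB9 was 1 of 8 members called there. In bulk RNA, fewer cells that express a gene and less of its RNA per cell cannot be told apart. Since the labels do not name separate cultures, each p-value reflects just the spread among these libraries, which may be technical.

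With EZH2 inhibition alone HOXB9 had 119, 75.7, 85.4 and 77.9 normalised counts in iEZH2 libraries 1 to 4, against 34.7 to 41.3 in DMSO libraries. Every iEZH2 library lay above every DMSO library, a separation found for 8.62% of all genes in either direction. The difference was 2.31-fold (log2 fold change 1.21 ± 0.28 SE, limma adjusted p = 0.0180), in a comparison that called 1.3% of genes higher and 3.35% in either direction (9.76% with replicates of the same number paired). The call was lost without DMSO library 1 (log2 fold change 1.17, limma adjusted p = 0.0564) or without DMSO library 4 (adjusted p = 0.0544). With pairing it was kept (limma adjusted p = 0.00251). HOXB9 took up 55.5 ± 2.74% of the HOXB sum in iEZH2 cells, against 37.4 ± 4.33% in DMSO cells (SD, n = 4 each), and without HOXB9 the sum was 71.0 ± 10.1 normalised counts in iEZH2 cells and 63.6 ± 8.30 in DMSO cells. HOXB9 thus made up most of the difference between the HOXB sums of the iEZH2 and DMSO groups, which were 160.5 ± 29.5 normalised counts in iEZH2 cells and 101.2 ± 6.69 in DMSO cells.

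With both compounds HOXB9 stood near the level of DMSO cells. It had 81.1, 29.8, 36.8 and 44.0 normalised counts in Combo libraries 1 to 4 (47.9 ± 22.9, SD), against 37.6 ± 2.94 in DMSO libraries (n = 4 each). Combo library 1 lay above all DMSO libraries and Combo library 2 below all of them. The difference was 0.24 ± 0.28 SE in log2 (95% confidence interval -0.34 to 0.82, limma adjusted p = 0.622), was 0.20 without DMSO library 1, and turned to -0.04 without Combo library 1. The SD of the Combo libraries was 22.9, where counting alone gives about 6.92, while in DMSO libraries it was 2.94, below the 6.14 that counting alone gives. Of the 8 members none was called in Combo against DMSO with limma and 1 (HOXB4) had an unadjusted p under 0.05, in a comparison that called 16% of all genes.

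The treatments also differed from each other in HOXB9. Combo cells had 3.66-fold more than iDOT1L cells (log2 fold change 1.87 ± 0.28 SE, limma adjusted p = 0.00143), with all 4 Combo libraries above all 4 iDOT1L libraries (10.4% of genes separated in either direction). That comparison called 2.58% of all genes, 1.11% higher. Combo against iEZH2 cells gave -0.97 ± 0.28 SE (limma adjusted p = 0.0574), which did not pass, in a comparison that called 3.81% of genes. It passed in 6 of 16 alternative fits (adjusted p 0.0072 to 0.193). There Combo library 1, at 81.1, lay among the iEZH2 libraries (75.7 to 119), and without Combo library 1 the difference was -1.25 (limma adjusted p = 0.0072). The iDOT1L cells had 7.15-fold less than iEZH2 cells (log2 fold change -2.84 ± 0.28 SE, limma adjusted p = 6.24e-06), without overlap (11.3% of genes), in a comparison that called 6.94% of genes, 3.06% lower (14.3% in either direction with replicates of the same number paired). These comparisons share libraries with those against DMSO.

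On the log2 scale the single-compound differences of HOXB9 from DMSO add to -0.42, and Combo differed from DMSO by 0.24. The interaction term, Combo minus iDOT1L minus iEZH2 plus DMSO, was 0.66 ± 0.39 SE (95% confidence interval -0.15 to 1.48, limma adjusted p = 1). It was thus not shown to differ from additive, and the interval holds both 0 and values above 1. No gene of the table was called for this term with limma (0% of genes), 848 had an unadjusted p under 0.05, and no HOXB member did.

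**Figure D2:**
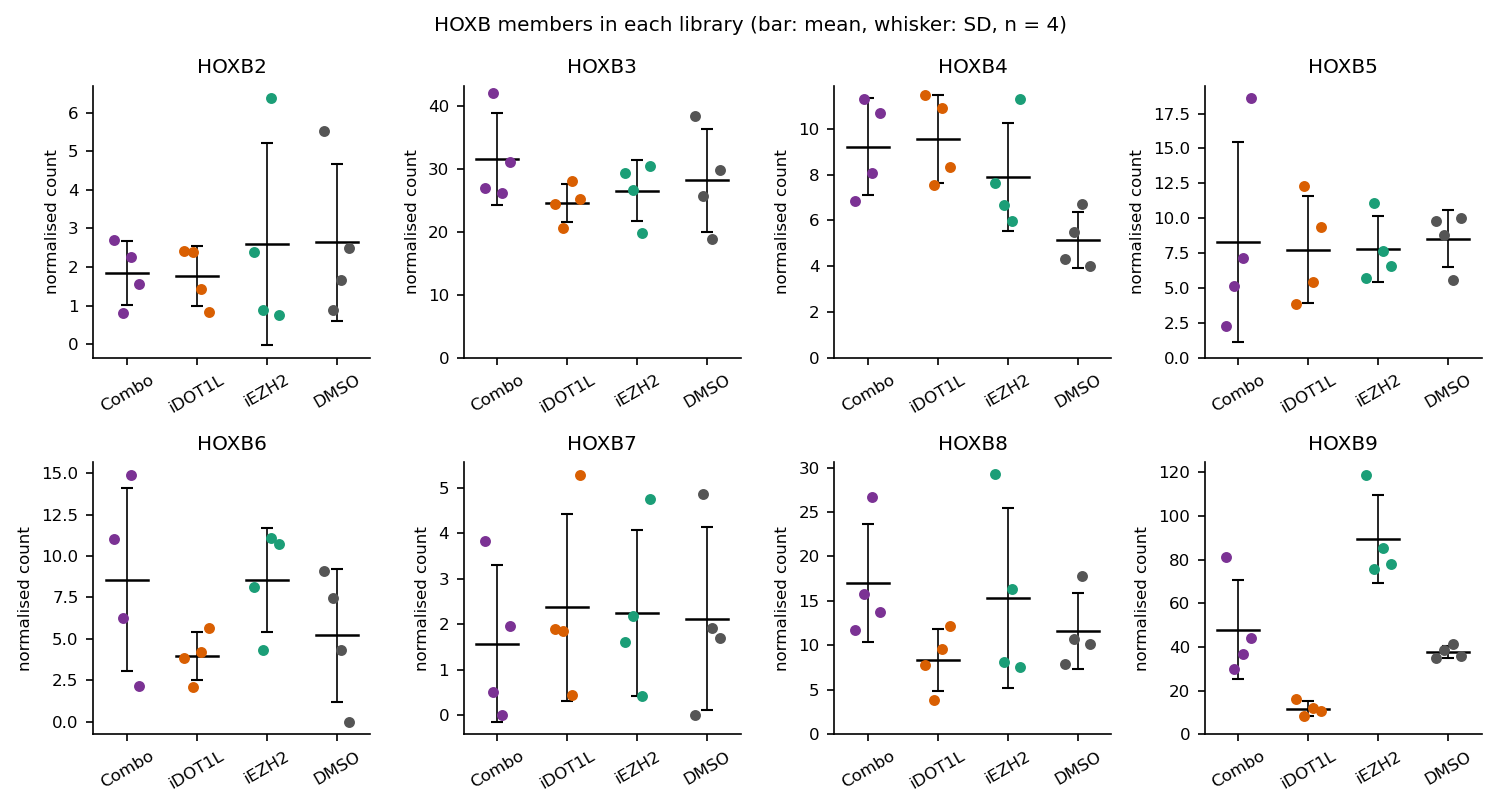
Normalised counts (y axes, linear, each panel with its own scale) of the 8 HOXB members in each library of the Combo, iDOT1L, iEZH2 and DMSO groups, with replicates 1 to 4 from left to right, bars at the mean and whiskers of 1 SD. Only the HOXB9 panel holds iDOT1L libraries (8.52 to 16.3) all below and iEZH2 libraries (75.7 to 119) all above the DMSO libraries (34.7 to 41.3).

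HOXB8, the neighbour of HOXB9 and a gene whose forced expression holds mouse myeloid progenitors in an undifferentiated state, had wide ranges. It had 11.7, 15.8, 26.7 and 13.8 normalised counts in Combo libraries, 7.75, 3.83, 9.53 and 12.2 in iDOT1L libraries, 29.3, 8.10, 16.3 and 7.59 in iEZH2 libraries and 7.92, 10.7, 17.8 and 10.2 in DMSO libraries. All groups overlapped. Its largest difference was between Combo and iDOT1L cells (log2 fold change 0.97 ± 0.43 SE, unadjusted p = 0.0343, limma adjusted p = 0.255), and it did not pass in any comparison. Its fitted differences from DMSO were 0.50 in Combo, -0.48 in iDOT1L and 0.23 in iEZH2 cells, each within a 95% confidence interval that holds 0. Over the 16 libraries HOXB8 and HOXB9 had the highest correlation of any member pair (Pearson r = 0.476 on log2 values; 28 pairs, from -0.557 to 0.476, median 0.0256), given as a description of libraries that share treatment groups.

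HOXB7, a gene often raised in solid tumours, was near the limit of detection. HOXB6, which is active in myelomonocytic differentiation, was also weakly expressed (6.59 ± 4.03 normalised counts, SD over 16 libraries). HOXB7 averaged 1.57 ± 1.72 normalised counts in Combo, 2.37 ± 2.05 in iDOT1L, 2.23 ± 1.82 in iEZH2 and 2.12 ± 2.02 in DMSO cells (SD, n = 4 each), with 2 of 16 libraries at 0. HOXB6 averaged 8.59 ± 5.55 in Combo, 3.96 ± 1.47 in iDOT1L, 8.57 ± 3.13 in iEZH2 and 5.23 ± 4.01 in DMSO cells. DMSO library 4 was at 0 for HOXB6. The 95% confidence interval of HOXB6 in iEZH2 against DMSO ran from -0.34 to 2.30 in log2, so a difference was not resolved at this depth.

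Among the middle genes, HOXB4, whose overexpression expands haematopoietic stem cells in mice, lay higher in treated cells without passing the test. It had 6.86, 11.3, 8.07 and 10.7 normalised counts in Combo libraries, 11.5, 7.57, 10.9 and 8.33 in iDOT1L libraries, 7.63, 6.68, 5.98 and 11.3 in iEZH2 libraries and 4.33, 5.51, 6.70 and 4.00 in DMSO libraries. Combo and iDOT1L libraries lay above all DMSO libraries, and iEZH2 libraries overlapped them. Groups that do not overlap were found for 19.9% of genes in Combo against DMSO and for 12.5% in iDOT1L against DMSO. HOXB4 was the 1 member separated in Combo against DMSO, and HOXB4 and HOXB9 were the 2 in iDOT1L against DMSO. Its difference from DMSO was 0.74 ± 0.32 SE in Combo cells (log2, limma adjusted p = 0.131), 0.79 ± 0.32 in iDOT1L cells (adjusted p = 0.181) and 0.52 ± 0.32 in iEZH2 cells (adjusted p = 0.466). Without DMSO library 1 the values were 0.68 in Combo cells (limma adjusted p = 0.237) and 0.73 in iDOT1L cells (adjusted p = 0.299). HOXB5, a marker of long-term stem cells in mice, averaged 8.29 ± 7.15 in Combo, 7.74 ± 3.83 in iDOT1L, 7.77 ± 2.37 in iEZH2 and 8.54 ± 2.03 in DMSO cells, and its Combo libraries spread from 2.28 to 18.6.

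HOXB3, an anterior gene that is active in haematopoietic progenitors, varied least for its level over the 16 libraries (mean 27.8 ± 6.13 normalised counts). It averaged 31.6 ± 7.32 normalised counts in Combo, 24.6 ± 3.05 in iDOT1L, 26.6 ± 4.80 in iEZH2 and 28.3 ± 8.19 in DMSO cells (SD, n = 4 each). Its differences from DMSO were 0.17 in Combo cells (95% confidence interval -0.35 to 0.70), -0.16 in iDOT1L cells (-0.68 to 0.37) and -0.06 in iEZH2 cells (-0.58 to 0.47). For iDOT1L these bounds leave out a fall as large as the 1.63 of HOXB9. The difference between members itself was not tested. HOXB2, a hindbrain patterning gene, averaged 1.83 ± 0.830 in Combo, 1.77 ± 0.775 in iDOT1L, 2.59 ± 2.62 in iEZH2 and 2.64 ± 2.03 in DMSO cells, too few reads for its differences to be resolved (95% confidence interval in iDOT1L against DMSO -1.36 to 0.78).

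**Figure D3:**
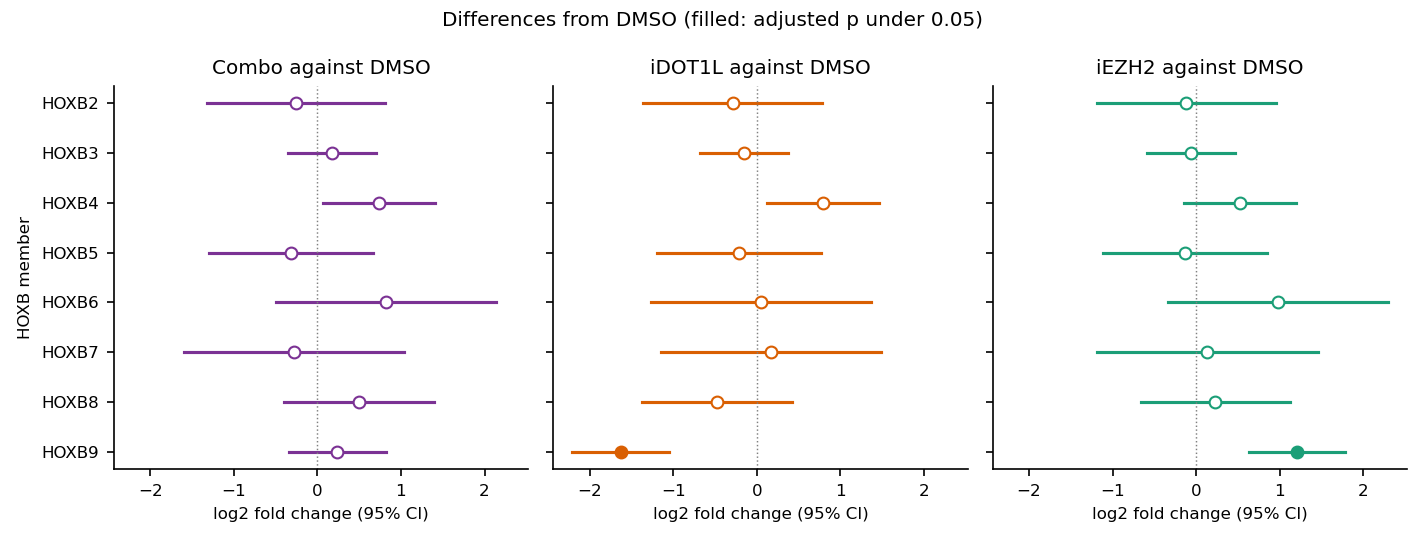
Log2 fold change with its 95% confidence interval (x axis) of each HOXB member (y axis, anterior to posterior) for Combo, iDOT1L and iEZH2 cells against DMSO cells, with filled points at limma adjusted p under 0.05. HOXB9 is the filled point at -1.63 in iDOT1L and at 1.21 in iEZH2 cells, and open at 0.24 in Combo cells.

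Across the 8 members the median difference from DMSO was 0.21 in Combo (0.03 over all genes tested), -0.18 in iDOT1L (0.01) and 0.18 in iEZH2 cells (0.02). HOXB9 was the 1 member called in iDOT1L, where it fell, and in iEZH2, where it rose, and the other 7 members had fitted differences of -0.31 to 0.82 in Combo, -0.48 to 0.79 in iDOT1L and -0.13 to 0.98 in iEZH2 cells. The upper ends in Combo and iEZH2 cells are HOXB6, whose difference ran from 0.081 to 1.27 in Combo and from 0.24 to 1.36 in iEZH2 cells when each library was left out in turn, and the lower end in iDOT1L cells is HOXB8, which ran from -0.67 to -0.19. Their sum without HOXB9 was 78.1 ± 8.75 in Combo, 58.4 ± 6.87 in iDOT1L, 71.0 ± 10.1 in iEZH2 and 63.6 ± 8.30 in DMSO cells.

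The flanks of the cluster gave no calls. Of 39 genes annotated from SKAP1 to TTLL6, 14 had a row, and of the 6 that are no HOXB2 to HOXB9 member none was called in any comparison with limma. At an unadjusted p under 0.05 there was 1, SKAP1 in Combo against DMSO (log2 fold change -1.29). It was chosen after its values were seen and rests on few reads, with means of 0.281 normalised counts in Combo and 2.13 in DMSO cells. None of the 6 had an unadjusted p under 0.05 in the other comparisons. HOXB13, the far posterior gene of the cluster and known for its role in the prostate, was the 1 of these with a group mean of at least 10. It had 17.2, 14.4, 9.86 and 18.6 normalised counts in Combo libraries, 26.9, 16.1, 19.0 and 14.6 in iDOT1L libraries, 23.8, 28.9, 8.55 and 12.2 in iEZH2 libraries and 61.8 in DMSO library 1 with 14.3 to 23.4 in the other DMSO libraries. DMSO library 1, the highest of all, is the library with raised prostate markers, and HOXB13 is one of them. In DMSO library 1, HOXB9 (34.7), HOXB8 (7.92) and HOXB7 (0) had their lowest values of the 4 DMSO libraries. HOXB2 (5.52), HOXB3 (38.5) and HOXB6 (9.1) had their highest there.

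The other HOX clusters give the setting. Over all genes tested, 16% were called in either direction in Combo, 6.25% in iDOT1L and 3.35% in iEZH2 against DMSO. Of 11 HOXA genes tested, 6 fell and none rose in Combo cells (median log2 difference -0.60). There 1 rose without DMSO library 2. In iDOT1L cells 7 fell and none rose (median -0.64), while 10 fell with replicates paired and 5 fell without DMSO library 1. In iEZH2 cells 1 rose and none fell (median -0.13). HOXA3 fell to 167.6 ± 31.6 normalised counts in Combo cells, against 402.3 ± 100.7 in DMSO cells (log2 fold change -1.24 ± 0.22 SE, limma adjusted p = 0.000649). HOXA5 fell by 1.11 ± 0.18 (limma adjusted p = 0.000316) and HOXA13 by 0.68 ± 0.10 (adjusted p = 6.25e-05) in Combo cells. The gene that rose in iEZH2 cells was HOXA7, a middle HOXA gene, chosen for this after its values were seen. It averaged 333 ± 23.0 in Combo, 218.6 ± 15.9 in iDOT1L, 390.6 ± 28.7 in iEZH2 and 285.9 ± 30.4 in DMSO cells, with differences from DMSO of 0.22 ± 0.11 SE in Combo (limma adjusted p = 0.184), -0.38 ± 0.11 in iDOT1L (adjusted p = 0.0399) and 0.45 ± 0.11 in iEZH2 cells (adjusted p = 0.0243). Its fall in iDOT1L cells was lost without any one of DMSO libraries 1, 2 and 3 or of the 4 iDOT1L libraries, and its rise in iEZH2 cells without DMSO library 1, 3 or 4 or iEZH2 library 3 or 4 (highest adjusted p = 0.129 and 0.0981). HOXA9, the paralogue of HOXB9, averaged 1414 ± 164 in Combo, 1293 ± 41.0 in iDOT1L, 1681 ± 109.5 in iEZH2 and 1600 ± 139.9 in DMSO cells, and was called against DMSO in none of the treatments without pairing (with pairing, adjusted p = 0.00623 in iDOT1L cells). Of its 31-base words 24.3% occur in other genes, and 0.0331% in genes that have a row.

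Of 10 HOXC and HOXD genes with a row, 2 rose and none fell in Combo cells, near the share over all genes (16%), and none was called in iDOT1L (0 at an unadjusted p under 0.05) or iEZH2 cells (3 at an unadjusted p under 0.05, as were 3511 of 22331 genes). HOXC10 rose to 131.3 ± 24.5 normalised counts in Combo cells, against 54.7 ± 16.5 in DMSO cells (log2 fold change 1.28 ± 0.23 SE, limma adjusted p = 0.00076). HOXC8 rose by 1.19 ± 0.34 (limma adjusted p = 0.0215), lost without Combo library 3 or DMSO library 2 (highest adjusted p = 0.0724). With replicates paired, HOXC4 was also called higher in iEZH2 cells (0.32, limma adjusted p = 0.0288).

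**Figure D4:**
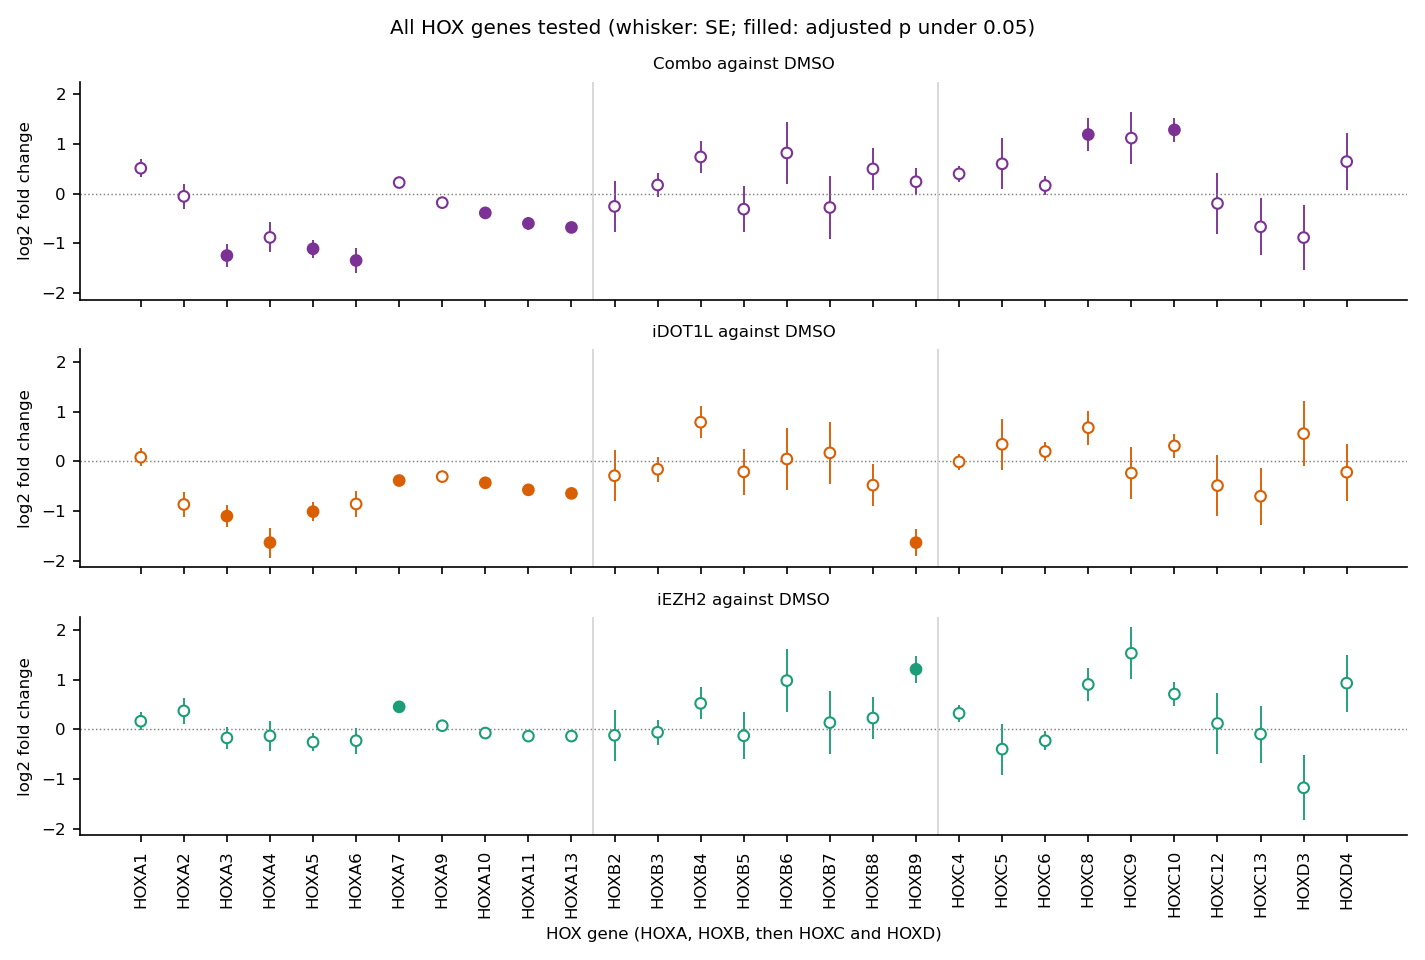
Log2 fold change with SE (y axes) of all HOX genes tested (x axis, HOXA then HOXB then HOXC and HOXD) in Combo, iDOT1L and iEZH2 cells against DMSO cells, with filled points at limma adjusted p under 0.05. Filled points in Combo and iDOT1L cells lie below 0 for HOXA genes, HOXB9 is filled below 0 in iDOT1L and above 0 in iEZH2 cells, and HOXC8 and HOXC10 are filled above 0 in Combo cells.

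HOX proteins bind DNA with cofactors of the TALE class, and of 11 TALE genes 3 fell in Combo cells and 3 in iDOT1L cells, none rose, and none was called in iEZH2 cells (2 at an unadjusted p under 0.05). MEIS1 fell by 1.13 ± 0.13 (limma adjusted p = 8.1e-06), PBX3 by 1.00 ± 0.14 (adjusted p = 6.07e-05) and MEIS2 by 0.69 ± 0.11 (adjusted p = 0.000207) in Combo against DMSO. Among 18 CDX and retinoid genes, which act on HOX clusters or respond to retinoic acid, 2 fell in Combo, 1 in iDOT1L and 3 in iEZH2 cells, and none rose. The share called over all genes was 16% in Combo, 6.25% in iDOT1L and 3.35% in iEZH2 cells. The list lay near this share in Combo and iDOT1L cells. It lay above it in iEZH2 cells, where 2 to 3 genes fell when each library was left out in turn. This excess was not tested. ALDH1A3, which makes retinoic acid, fell by 3.07 ± 0.18 (limma adjusted p = 1.12e-08) and the retinol dehydrogenase gene DHRS9 by 0.58 ± 0.12 (adjusted p = 0.00182) in Combo cells. With replicates paired, RDH10 was also called higher in iEZH2 cells (0.41, limma adjusted p = 0.0289).

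Of 18 genes of the Trithorax and DOT1L side, 5 fell in Combo cells, 1 (MLLT10) fell in iDOT1L cells and none was called in iEZH2 cells (2 at an unadjusted p under 0.05), where all genes gave 16% in Combo and 6.25% in iDOT1L cells, so that the iDOT1L count was near the share over all genes. MLLT10, a DOT1L cofactor, fell by 0.41 ± 0.09 (limma adjusted p = 0.0035), the elongation kinase gene CDK9 by 0.33 ± 0.08 (adjusted p = 0.00842) and KMT2A by 0.68 ± 0.18 (adjusted p = 0.0134) in Combo against DMSO. Without DMSO library 1 only 2 of these 18 fell in Combo cells and the call of KMT2A was lost (-0.58, limma adjusted p = 0.0523). The fall of MLLT10 in iDOT1L cells was lost without DMSO library 1, 2 or 4 or iDOT1L library 2, 3 or 4. Of 21 genes of the Polycomb side, 4 rose and 4 fell in Combo cells, 2 rose in iDOT1L cells, and 1 rose and 1 fell in iEZH2 cells (with pairing, 3 rose and 3 fell in iDOT1L and 4 rose and 2 fell in iEZH2 cells), beside shares over all genes of 16% in Combo, 6.25% in iDOT1L and 3.35% in iEZH2 cells (with pairing, 12.2% in iDOT1L and 9.76% in iEZH2 cells). CBX2, a chromobox subunit of Polycomb repressive complex 1, rose by 0.91 ± 0.10 (limma adjusted p = 5.27e-06), PCGF2, another subunit of that complex, by 2.09 ± 0.33 (adjusted p = 0.000193), and JARID2, a cofactor of Polycomb repressive complex 2, fell by 0.50 ± 0.08 (adjusted p = 0.000272) in Combo against DMSO. In iDOT1L cells the 2 Polycomb-side rises, EZH1 and PCGF2, came to 1 without DMSO library 1 or 3 or iDOT1L library 1 or 2 and to 0 without DMSO library 2 or iDOT1L library 3 or 4. In iEZH2 cells CBX2 rose and KDM6B fell, the fall was lost without DMSO library 1 or 4 or iEZH2 library 2 or 4, 2 genes fell without iEZH2 library 1 and 2 rose without iEZH2 library 2.

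Among 11193 other protein-coding genes with a mean of at least 50 normalised counts, those most like the HOXB members over the 16 libraries were found by Pearson r with the mean z score of HOXB3, HOXB8 and HOXB9, the members with a mean of at least 10. They were GLCCI1 (r = 0.88), RALGAPA1 (0.847), ACTA2 (0.839), ARL15 (0.816) and DAB2IP (0.814). HOXB3 had r = 0.0419 with HOXB8 and 0.11 with HOXB9, and HOXB8 had 0.476 with HOXB9. The score is thus an average and no profile that the 3 members share. The libraries share treatment and depth, so these likenesses are descriptions. GLCCI1 averaged 675 in Combo, 525.4 in iDOT1L, 666.6 in iEZH2 and 624.2 in DMSO cells, and ACTA2, the smooth muscle actin gene, averaged 152.9 in Combo, 110.6 in iDOT1L, 196.1 in iEZH2 and 154.9 in DMSO cells. With HOXB9 alone, a choice made after the values were seen, the closest were DSTN (r = 0.944), UBTD2 (0.927), PMP22 (0.923), IFT22 (0.916) and NCKAP1 (0.915). DSTN, which encodes the actin-severing protein destrin, averaged 774.2 in Combo, 512.1 in iDOT1L, 891.9 in iEZH2 and 692.8 in DMSO cells, and NCKAP1, a subunit of the WAVE actin regulator, averaged 238.3 in Combo, 124.6 in iDOT1L, 451.3 in iEZH2 and 233.3 in DMSO cells.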

How the data were processed

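Per the submitters' processing notes, the authors used kallisto, DESeq2 and the hg38 build, with roles and versions that these notes leave out. The deposited log2 values have the form of a variance-stabilising transformation, with the same lowest value of 6.28106 in all 16 libraries, read as 0 reads, and were turned back into normalised counts by the inverse of that transformation. Read totals are estimates from the spacing of low values, of which 64.3% to 66.8% lay within 0.1 read of a whole number. Of the gene IDs, 20784 matched GENCODE v29 and 1661 did not. The extraction label speaks of 3 days after a sort, against 7 days of treatment elsewhere, and the treatment text was followed.

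Limma 3.58.1 (trend and robust, R 4.3.3) was fitted to log2(normalised count + 1) of 22331 genes above 1 in at least 4 libraries, with 4 group means over 16 libraries (12 residual degrees of freedom). Fold changes are on this scale, which understates changes of low genes. Calls are at a Benjamini-Hochberg adjusted p under 0.05 over all genes of a comparison. The fitting step was tested on simulated data, with changes planted only in genes above the DMSO means of all members but HOXB3 and HOXB9. Recovery of changes at the levels of the other members was not tested. All 8 members passed the filter. Members and lists were chosen with earlier results of these data known. Other genes were named by rule: neighbours from SKAP1 to TTLL6 that were called or had a group mean of at least 10, the 5 genes most alike, and up to 3 genes of each list with the lowest adjusted p in Combo against DMSO. Residuals of libraries with the same replicate number correlated above 0.1 in every pair for 3 comparisons, iDOT1L against DMSO (0.109 to 0.50), iEZH2 against DMSO (0.198 to 0.581), and iDOT1L against iEZH2 (0.113 to 0.639). These were also fitted with the replicate number as a block. What the number stands for is not labelled. No pair of libraries was a copy (r 0.982 to 0.996). Python 3 with pandas 2.3.3 and numpy 2.4.6 served for the rest. Raw reads and promoter sequences of the members were not analysed here.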

Additional observations from a re-analysis of the deposited data

Results flagged for a closer look

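In 160 groups of 4 libraries (40 named genes), 9 held a library far from the other 3 by Dixon's criterion, where chance gives about 1 in 20. None of them was a HOXB member. In DMSO library 1 these were KLK3 (42.72 normalised counts), CDH1 (115.4), STEAP1 (31.67) and CDK9 (1281), of which the first 3 were chosen after the values of this library were seen. The others were STEAP1 in Combo library 4 (6.23), HOXA13 in Combo library 1 (1426), DSTN in Combo library 1 (939.4), JARID2 in iDOT1L library 1 (5875) and CDK9 in iEZH2 library 2 (1130).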

How the results depend on the processing

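Of 456 refits of 29 HOXB results, 424 kept direction and side of the threshold. These are the members' results against DMSO, all results of HOXB9, and HOXB8 in Combo against iDOT1L. Other results of the members were not counted. Differences of uncalled members turned sign in 23 refits and that of HOXB9 in 1, none with an adjusted p under 0.571. In iDOT1L against DMSO, HOXB6 came to -0.10 with a pseudocount of 5 and -0.0063 with quantile normalisation, and HOXB7 to -0.021 with quantile normalisation. In iEZH2 against DMSO, HOXB7 came to -0.034 with quantile normalisation. The cause was not tested.

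Leaving out each library in turn, log2 differences in iDOT1L against DMSO ran from -0.55 to 0.046 for HOXB2, -0.33 to 0.0034 for HOXB3, -0.45 to 0.040 for HOXB5, -0.69 to 0.43 for HOXB6 and -0.29 to 0.56 for HOXB7. In iEZH2 against DMSO they ran from -0.55 to 0.21 for HOXB2, -0.23 to 0.10 for HOXB3, -0.33 to 0.52 for HOXB7 and -0.14 to 0.47 for HOXB8. In Combo against DMSO they ran from -0.52 to 0.076 for HOXB2, -0.77 to 0.088 for HOXB5, -0.74 to 0.11 for HOXB7 and -0.044 to 0.43 for HOXB9. The number of members called ran from 0 to 1 in iEZH2 against DMSO (0 without DMSO library 1 or 4) and from 0 to 1 in Combo against iEZH2 (1 without Combo library 1). Combo against iEZH2 also called 1 member, HOXB9, in place of 0 with the values as deposited (limma adjusted p = 0.0269), a pseudocount of 5 (0.0442), a mean of at least 10 (0.0439), quantile normalisation (0.0230) or the replicate block (0.0119).

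The replicate block changed no other member call. It raised the genes called over the table to 2729 in iDOT1L against DMSO, 2180 in iEZH2 against DMSO, 5499 in Combo against DMSO, 2240 in Combo against iDOT1L, 2136 in Combo against iEZH2 and 3185 in iDOT1L against iEZH2. In the 3 comparisons with Combo, same-number residual r ran from 0.0515 to 0.441 (DMSO), 0.0362 to 0.394 (iDOT1L) and 0.0528 to 0.481 (iEZH2), so not every pair was above 0.1 and these were not treated as paired. Fitting the compared groups alone gave 450 in iEZH2 against DMSO, 511 in Combo against iEZH2 and 1004 in iDOT1L against iEZH2. Without 1 library the counts ran from 915 to 1279 (iDOT1L), 409 to 1046 (iEZH2) and 2642 to 3583 (Combo) against DMSO, 199 to 567 in Combo against iDOT1L, 493 to 1349 in Combo against iEZH2 and 964 to 1802 in iDOT1L against iEZH2, where 577, 850 and 1550 were called with all. Levels averaged on the deposited scale were 0.133% to 34.4% lower than mean counts, all 32 within 1 SD.

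At under 10 normalised counts HOXB2, HOXB4, HOXB5, HOXB6 and HOXB7 rest on few reads, and an interval covers counting and library spread only. Shared exons limit HOXB6, and 1 cell line limits all.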
